A study of Mus musculus with 3 samples.

Results

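The expression of 9 transcription factors of the macrophage lineage, Maf, Nr1h3, Nr4a1, Irf4, Irf8, Spi1, Klf4, Nfix and Bhlhe40, was followed cell type by cell type in regenerating mouse muscle. They were chosen by symbol, out of 32285 genes in the count matrices, of which 25566 had at least 1 UMI (a unique molecular identifier, which marks one captured transcript). All 9 were detected in macrophages, each with at least 50 UMIs. Single cells were isolated from tibialis anterior muscle 4 days after injury with BaCl2, a salt that kills muscle fibres but leaves the muscle able to regenerate. Young PBS and old PBS muscles received vehicle, and old rMETRNL muscles received recombinant meteorin-like, a secreted protein, after the same injury. The mice were C57/BL6J, the young 3 to 4 months old and the old 24 to 26 months old. There was 1 library per group, made from pooled animals, so no group had a replicate. The groups were therefore compared without a test, and each interval covers counting error only, not the spread between mice.

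Macrophage identity is built by transcription factors that act in layers. PU.1, the product of Spi1, opens the enhancers of all myeloid cells, and factors such as Irf8, Irf4, Klf4 and Maf then bias those cells towards monocyte, dendritic or resident macrophage fates. Nr1h3 (LXR alpha), Nr4a1, Nfix and Bhlhe40 act on top of this base, linking lipid load, acute stimulation, the timing of repair and proliferation to the genes that a macrophage transcribes.

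The files held 12168 to 14012 barcodes per library, with 179295668 to 228966697 UMIs. After filtering, 31805 cells were kept, with 10022 to 11463 in a library. Pairs of libraries shared 58 to 80 barcodes. Clustering, with the 9 factors left out of the genes used for it, gave 18202 macrophage/monocyte-like cells and 1543 dendritic-like cells. Of the macrophage/monocyte-like cells, 97.6% had a UMI of Csf1r, 93.2% of Adgre1 and 95.7% of C1qb. Flt3, which marks dendritic cells, was found in 58.5% of dendritic-like cells and in 0.912% of all others. Cells left without a class, from a sub-cluster of low UMI count and one led by muscle genes, made up 2.69% to 5.28% of a library. Levels are given as CPM, the UMIs of a gene relative to all UMIs of the same cell group and library, scaled so that all genes sum to the same total, in the order young PBS, old PBS, old rMETRNL. Subsets of the macrophage/monocyte-like and dendritic-like cells are called by their marker genes, and each such name means only that the markers were raised. Levels of different groups of cells are described without a test, because the groups were themselves defined from these transcripts.

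Spi1 was high in myeloid cells and low elsewhere. Its level in macrophage/monocyte-like cells was 420, 396 and 413 CPM, and in dendritic-like cells 409, 373 and 396 CPM. No other class with at least 50 cells in each library exceeded 50.2 CPM in any library. After cells were thinned to 2000 UMIs each, 55.7%, 51.7% and 55.2% of macrophage/monocyte-like cells had a Spi1 UMI. In MuSC/myoblast-like cells (muscle stem cells and their progeny, which should lack the gene) the share was 1.13%, 2.44% and 1.22%, which is read as background. Without thinning the shares were 96.4%, 94.9% and 96.9% against 9.30%, 12.6% and 8.11%, at median depths of 14282, 15095 and 14623 UMIs in macrophages and 29804, 27703 and 28793 in MuSC/myoblast-like cells. Within the myeloid cells Spi1 was even. It lay between 313 CPM, in cDC1-like cells of young PBS, and 497 CPM, in Il1a/Slc7a11/Ccrl2 macrophages of old rMETRNL, over all macrophage and dendritic subsets and libraries.

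Irf8, which is required for cDC1 and plasmacytoid dendritic cells and which restrains granulocyte fates, was highest in 54 plasmacytoid dendritic-like cells. There it stood at 2951, 3020 and 2732 CPM, from 24, 10 and 20 cells. The cDC1-like cells, conventional dendritic cells specialised for cross-presentation, followed with 1257, 939 and 1242 CPM. The cDC2-like cells, the other conventional lineage, held 141, 101 and 113 CPM. Hence no library of one lineage came near any library of the other. Mature DC-like cells, led by Cacnb3, Fscn1 and Ccl22, held 369, 602 and 725 CPM, and macrophage/monocyte-like cells 304, 265 and 272. Irf8 was also measured outside myeloid cells, at 682, 461 and 536 CPM in T/NK-like cells and at 155, 227 and 171 CPM in endothelial-like cells. Pericyte/smooth muscle-like cells had 159 to 369 CPM of Irf8, a range that overlapped with that of macrophages. In MuSC/myoblast-like cells it was 7.88, 11.9 and 6.76 CPM.

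Irf4, which acts in cDC2 development and in alternatively activated macrophages, took the opposite side of the dendritic divide. It was 57.8, 77.6 and 57 CPM in cDC2-like cells and 2.14, 4.78 and 3.41 CPM in cDC1-like cells, where the counts were only 4, 7 and 8 UMIs. Among the named macrophage subsets it was highest in Cd163/Lyve1/Cbr2 macrophages, a profile known from resident macrophages of muscle connective tissue, with 46.5, 89.1 and 44.3 CPM. A small sub-cluster of 342 cells led by Dcstamp, Ear2 and Retnla (sub-cluster 12) held 111, 83.1 and 119 CPM. This was above the Cd163/Lyve1/Cbr2 group in young PBS and old rMETRNL and below it in old PBS. No marker list named sub-cluster 12, as a class or as a subset. It scored best for macrophages among the classes and for mature DC among the subsets. It is counted with the macrophages here, although its mean Maf of 49.3 CPM was below that of every other macrophage group. The Irf4 level in all macrophage/monocyte-like cells was 12.2, 23.3 and 17.2 CPM. In the thinned cells 2.50%, 5.36% and 3.05% of them had an Irf4 UMI, against 0 of 442, 0 of 205 and 0 of 410 MuSC/myoblast-like cells, with upper bounds of 0.831%, 1.78% and 0.896%. Without thinning the macrophage shares were 10.3%, 18.5% and 14.6% and those in MuSC/myoblast-like cells 0.846%, 0.930% and 0.676%.

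Maf (c-Maf), which restrains macrophage self-renewal and promotes Il10 expression, separated macrophages from dendritic cells. Macrophage/monocyte-like cells made up 57.2% of cells and held 86.2% of all Maf UMIs. Cd163/Lyve1/Cbr2 macrophages had 806, 769 and 867 CPM, and interferon-response macrophages, the next, 526, 491 and 484. Neither the first place nor the second overlapped with the one after it in any library. Spp1/Gpnmb macrophages, a lipid-handling phagocytic profile, had 176, 171 and 184 CPM and Ly6c2-high monocytes, the recent arrivals from blood, 156, 117 and 197. The 3 dendritic subsets lay between 5.55 and 35.5 CPM. T/NK-like cells also carried Maf, at 123, 156 and 210 CPM.

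Nr1h3, the oxysterol receptor LXR alpha, differed from Maf in its leading groups. Spp1/Gpnmb macrophages held 84.9, 76.0 and 79.2 CPM and the Hes1- and Hspa1a-led sub-cluster 4 (2035 cells) held 81.7, 86.0 and 76.7 CPM, ranges that overlapped. Il1a/Slc7a11/Ccrl2 macrophages, an inflammatory and redox-responsive profile, followed at 62.2, 60.1 and 68.1. In the Cd163/Lyve1/Cbr2 macrophages, where Maf was highest, Nr1h3 was only 10.4 and 11.9 CPM in the PBS libraries, and no higher in old rMETRNL. Pericyte/smooth muscle-like cells reached 48.8, 74.8 and 53.5 CPM on 37, 45 and 32 UMIs, so the class carried Nr1h3 at a level that overlapped with macrophages.

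Bhlhe40, a basic helix-loop-helix repressor that restrains Il10 and permits macrophage proliferation, shared with Nr1h3 its low level in resident-like cells. Mature DC-like cells held 435, 408 and 465 CPM, sub-cluster 12 held 285, 307 and 337, and cDC2-like cells 271, 356 and 280. Among the other macrophages, Spp1/Gpnmb macrophages (165, 230 and 189 CPM) and Il1a/Slc7a11/Ccrl2 macrophages (159, 204 and 180) overlapped. The lowest were interferon-response macrophages, at 29.8, 42.6 and 57.1 CPM, and Cd163/Lyve1/Cbr2 macrophages, at 33.5, 63.7 and 30.8 CPM. The ranges of these 2 overlapped.

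Nr4a1 (Nur77), an immediate early nuclear receptor needed by Ly6C-low monocytes, was spread over many classes. Pericyte/smooth muscle-like cells had the highest level of the large classes, 558, 755 and 770 CPM. Within the myeloid cells, Cd163/Lyve1/Cbr2 macrophages (303, 231 and 253 CPM), cDC1-like cells (280, 208 and 286), sub-cluster 4 (259, 293 and 219), cDC2-like cells (292, 172 and 255) and Ly6c2-high monocytes (235, 159 and 225) could not be ranked, since each overlapped with the next. Spp1/Gpnmb macrophages had 64.6, 48.8 and 61.5 CPM.

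Klf4, which promotes monocyte differentiation and M2-type activation but also serves in epithelial, vascular and stromal cells, was not highest in macrophages. FAP-like cells (fibro/adipogenic progenitors, the stromal cells of muscle) held 46.3% of its UMIs, at 416, 740 and 513 CPM. They made up 15.5% of cells, but they were deep. Their largest cluster had a median of 25280 UMIs per cell, against 12870 in the largest macrophage cluster. Tenocyte-like cells had 503, 452 and 661 CPM and endothelial-like cells 258, 448 and 302. Among macrophages the Cd163/Lyve1/Cbr2 group was highest, at 336, 587 and 391 CPM, above the next group in each library.

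Nfix, which sets the timing of the switch from inflammatory to restorative macrophages and also acts in muscle precursors, was chiefly stromal. FAP-like cells held 75.0% of its UMIs, at 479, 584 and 533 CPM, and tenocyte-like cells had 474, 572 and 623. MuSC/myoblast-like cells held 160, 179 and 174 CPM and macrophage/monocyte-like cells 20.7, 24 and 25.8. Among macrophages it was again highest in the Cd163/Lyve1/Cbr2 group, with 40.5, 55.4 and 51.8 CPM. Free RNA was gauged from the stromal collagen Col1a1, which in macrophage/monocyte-like cells stood at 0.344%, 0.313% and 0.381% of its FAP level. The same share of the FAP level would be 1.65, 1.83 and 2.03 CPM of Nfix and 1.43, 2.32 and 1.96 CPM of Klf4.

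Promoters of 3 of the factors, Klf4, Irf4 and Nfix, held the recognition letters of another of the 9 factors, and those of Klf4 and Irf4, which have 1 match each, are printed as examples. The sequences are from RefSeq, build GRCm38.p6, bases -200 to -51 before the start site, and capitals mark the match. Klf4 lies on chromosome 4, 55527143 to 55532466, minus strand. Irf4 lies on chromosome 13, 30749226 to 30766976, plus strand (GENCODE M21).
Klf4, chr4:55532526-55532675, minus strand: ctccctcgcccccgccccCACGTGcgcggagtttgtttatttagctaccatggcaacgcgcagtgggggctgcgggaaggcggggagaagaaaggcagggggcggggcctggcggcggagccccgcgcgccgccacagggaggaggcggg
Irf4, chr13:30749033-30749182, plus strand: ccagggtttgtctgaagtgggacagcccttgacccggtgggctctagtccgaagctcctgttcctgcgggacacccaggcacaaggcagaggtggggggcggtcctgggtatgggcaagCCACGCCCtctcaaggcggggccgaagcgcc
The capitals in Klf4 are CACGTG, the E-box that Bhlhe40 binds, at bases -182 to -177. Of 32851 promoter windows of 250 bases, 6.02% held it. The capitals in Irf4 are a match to CCACNCCC, the CACCC box of Klf4, at bases -81 to -74, which 15.9% of windows held. Nfix had 3 matches in different windows, a CACCC box at bases -202 to -195 and the element that Nr4a1 binds (NBRE, AAAGGTCA, in 1.34% of windows) at -70 to -63 and at -206 to -199. These windows all lie inside the Nfix gene of GENCODE M21 (chromosome 8, 84699876 to 84800344, minus strand). The window of the match at -206 to -199 overlaps an annotated exon. Both strands were searched. Of the 9 factors 6 had promoters in the table, and letters for PU.1 (GAGGAAGT, in 2.44% of windows) and for an IRF repeat (GAAA, any 2 bases and GAAA again, 2.98%) were found in none of their 11 windows. A match is a description of these letters and was not tested as a site.

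**Figure D1:**
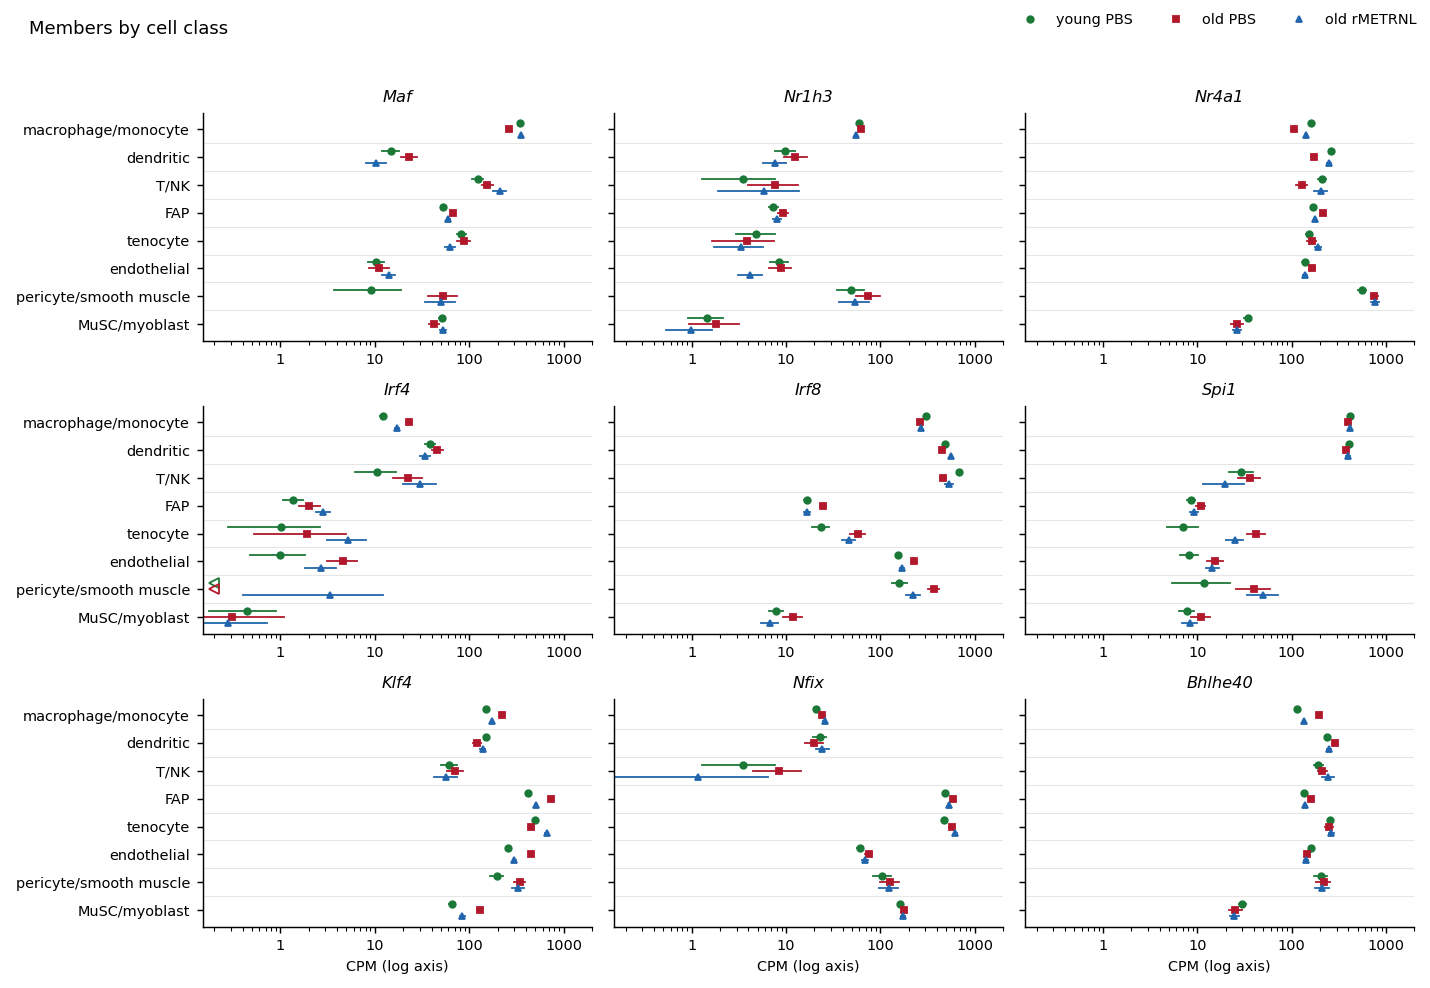
Level of each factor in the 8 classes with at least 50 cells in every library, as CPM on a log axis. Points are the libraries (green circles young PBS, red squares old PBS, blue triangles old rMETRNL), lines are exact 95% Poisson intervals, and open triangles at the left mark 0 UMIs. Spi1 is above 370 CPM only in macrophage/monocyte-like and dendritic-like cells, while Klf4 and Nfix are highest in FAP-like and tenocyte-like cells.

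**Figure D2:**
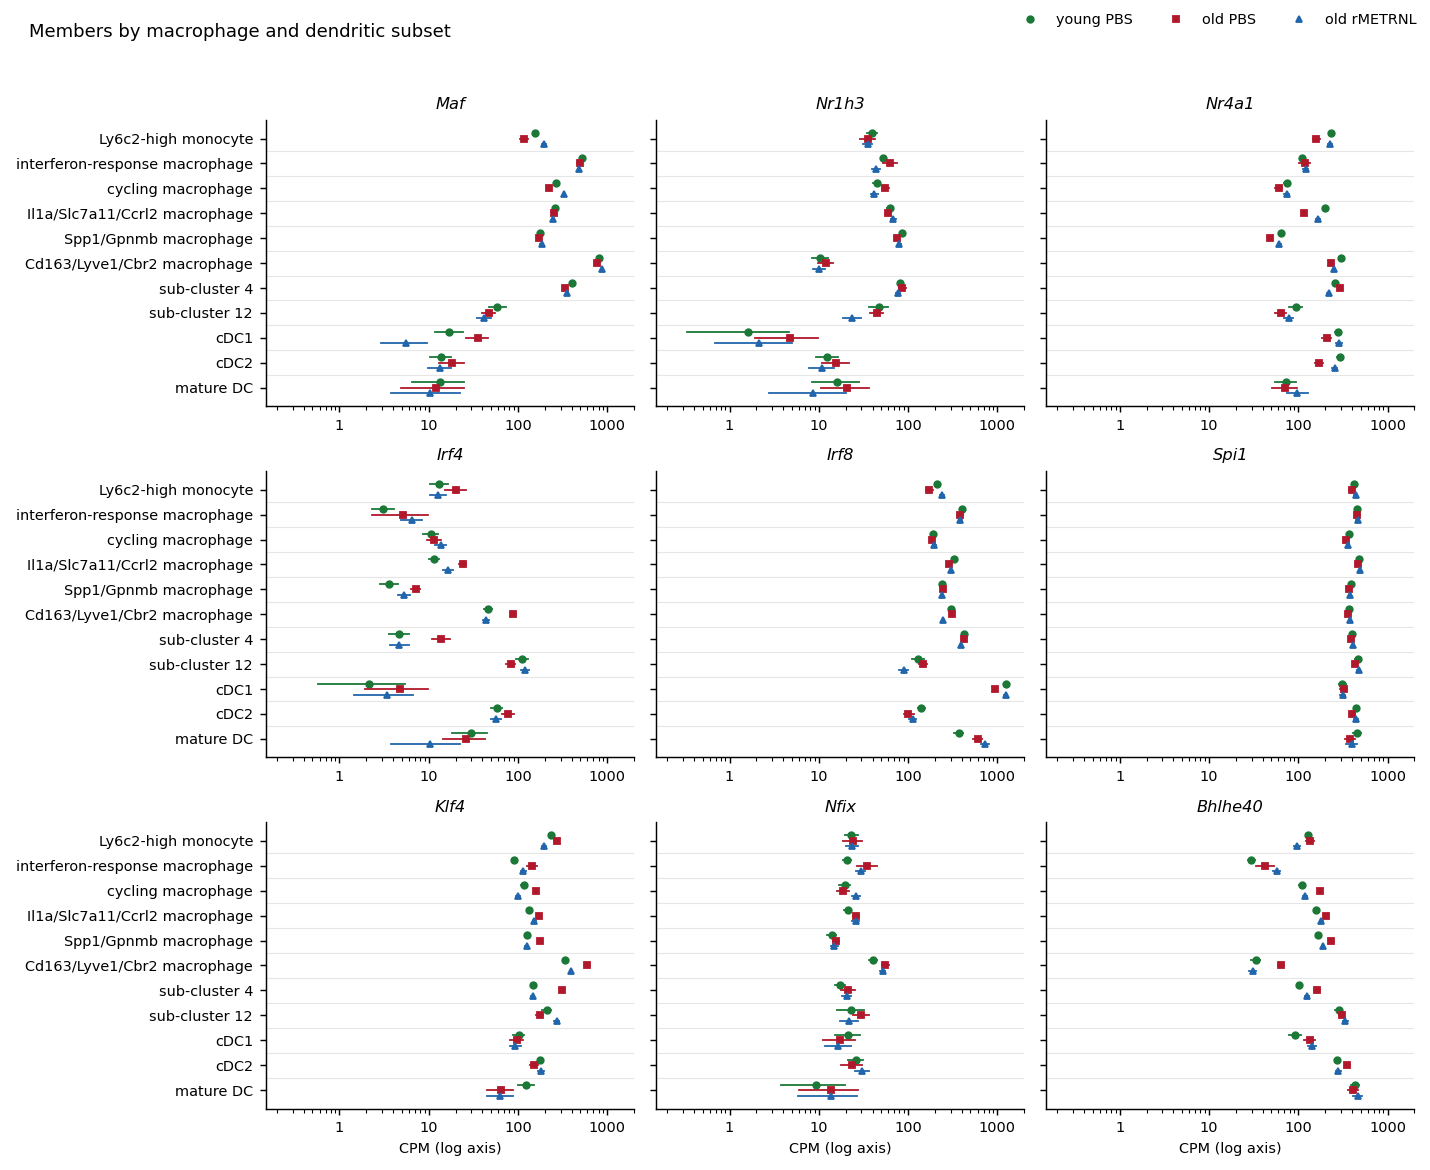
Level of each factor in macrophage and dendritic subsets, as CPM on a log axis, with symbols and intervals as in the plot by class. Maf and Klf4 are highest in Cd163/Lyve1/Cbr2 macrophages, where Nr1h3 is lowest among the macrophage groups, and Irf8 separates cDC1-like from cDC2-like cells in every library.

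For each factor the 3 genes with the most similar profile were sought among 10870 genes over 27 profiles, which are the 9 named subsets in the 3 libraries. The profiles share libraries and depth, and the correlations are descriptions. For Maf these were Scarf1, Ccl8 and Mfsd11 (Pearson r of log2(CPM + 1) of 0.959, 0.959 and 0.958). For Nr1h3 they were Ctss, Mmp14 and Acp5 (0.949, 0.949 and 0.930). For Nr4a1 they were Ier2, Jund and Cd86 (0.871, 0.869 and 0.868). For Irf4 they were Foxp1, Rela and Mt2 (0.865, 0.853 and 0.850), and for Irf8 they were Afap1, Plaat3 and Txndc16 (0.875, 0.873 and 0.862). Spi1 was closest to Axl, Cd72 and Gm5547 (0.875, 0.864 and 0.825) and Klf4 to Mafk, Mat2a and Ugcg (0.849, 0.847 and 0.839). Nfix was closest to Egr1, Tut7 and Lbh (0.918, 0.911 and 0.877) and Bhlhe40 to Ggta1, Basp1 and Mrtfa (0.901, 0.901 and 0.886).

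The libraries were then compared within macrophage/monocyte-like cells. The age comparison sets old PBS against young PBS and the treatment comparison sets old rMETRNL against old PBS. Both use the old PBS library, so that a high or low value in that library alone enters them with opposite signs. A factor was called when the libraries differed at least 1.5-fold. In the age comparison 2 factors were called higher (Irf4 and Bhlhe40) and 1 lower (Nr4a1), where 13.6% of all 14285 tested genes were called either way. In the treatment comparison 0 of 9 were called, where 9.72% of genes were. Between old rMETRNL and young PBS 0 of 9 were called as well, with 6.55% of genes. The median log2 ratio of the 9 was 0.04 with age and 0.04 with treatment, beside -0.008 and 0.051 over all genes.

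Irf4 was higher in old PBS than in young PBS by a ratio of 1.91 (95% interval 1.78 to 2.06) and lower in old rMETRNL than in old PBS, at 0.739 (0.695 to 0.786). Between old rMETRNL and young PBS its ratio was 1.41 (1.31 to 1.52). Bhlhe40, at 115, 194 and 136 CPM, had ratios of 1.69 (1.65 to 1.73) with age and 0.700 (0.685 to 0.715) with treatment. Klf4, at 150, 224 and 174 CPM, lay just outside the fold with 1.49 (1.46 to 1.53) and stood at 0.779 (0.764 to 0.794) with treatment. All 3 were thus highest in the old PBS library and intermediate in old rMETRNL. The summed level of 12 myocyte markers in these macrophages was 59.4, 134 and 71.3 CPM, also highest in old PBS, and its part in the 3 ratios was not tested.

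Nr4a1 and Maf were lowest in the old PBS library. Nr4a1 was 160, 105 and 141 CPM, a ratio of 0.660 (0.643 to 0.676) with age, just inside the fold, and 1.34 (1.31 to 1.38) with treatment. Maf was 345, 265 and 351 CPM, with 0.769 (0.756 to 0.781) and 1.32 (1.3 to 1.35). Irf8 had ratios of 0.873 and 1.03, Spi1 0.942 and 1.04, Nr1h3 1.03 and 0.902, and Nfix 1.16 and 1.08.

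The class holds subsets in different proportions in each library, and a class level moves with them. Interferon-response macrophages, for example, numbered 1152, 145 and 615 cells. With the sub-clusters given the same weight in every library, Maf had ratios of 0.922 with age and 1.11 with treatment, and Nr4a1 had 0.806 and 1.11, neither past the fold. Bhlhe40 had 1.37 and 0.826. Irf4 stayed past the fold with age at 1.72 (0.683 with treatment), and Klf4 came to 1.53 (0.703). This weighting was chosen after the data had been seen. Under it the 2 factors called with age were Irf4 and Klf4, beside 9.88% of genes called either way under the same weighting. With treatment 0 of 9 were called, beside 7.46%, and between old rMETRNL and young PBS 0 of 9, beside 5.70%.

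**Figure D3:**
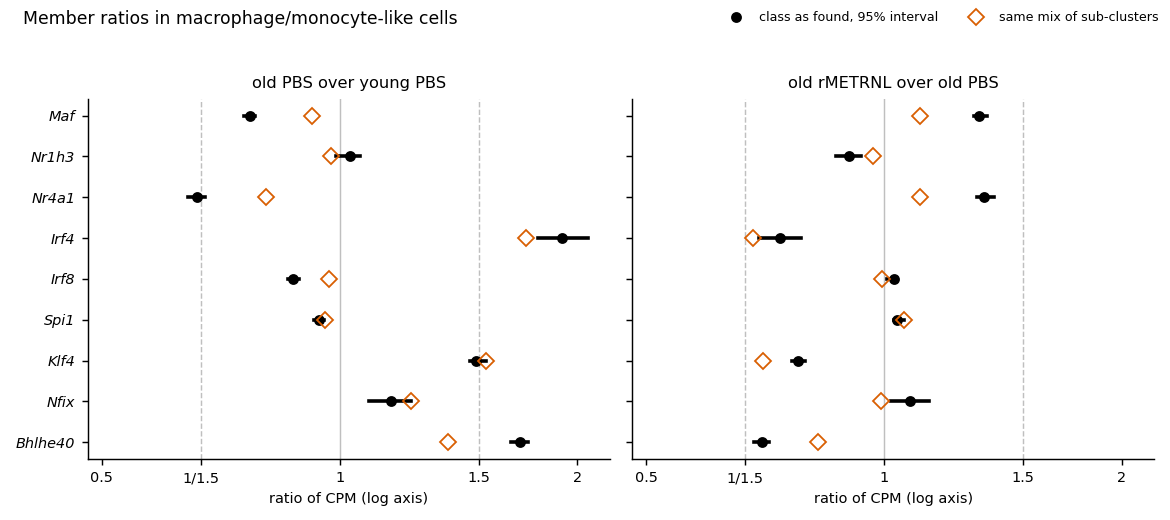
Ratio of CPM between libraries in macrophage/monocyte-like cells, on a log axis, for old PBS over young PBS and for old rMETRNL over old PBS. Filled circles with exact 95% intervals are the class as found, open diamonds give every library the same mix of sub-clusters, and dashed lines mark the 1.5-fold limits. With the same mix Maf, Nr4a1 and Bhlhe40 lie nearer 1 in both comparisons, and Irf4 and Klf4 are the factors past the fold with age.

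Within the 8 groups of macrophage sub-clusters, Klf4 was higher in old PBS than in young PBS, with an interval above 1, in 7. Sub-cluster 12, which no class marker list named, was the exception, at 0.830 (0.722 to 0.956). The treatment ratio of Klf4 was below 1 with its whole interval in 7 and above 1 in sub-cluster 12, where it was 1.55 (1.39 to 1.73). The age ratio of Bhlhe40 had its interval above 1 in 6 of 8 and below it in 0 of 8, and its treatment ratio was below 1 in 6 and above 1 in 2, reaching 1.34 (1.05 to 1.73) in interferon-response macrophages. Of the 7 groups with at least 50 Irf4 UMIs in both libraries, the age ratio of Irf4 had its interval above 1 in 5 and below 1 in sub-cluster 12 alone, at 0.746 (0.613 to 0.911). Its treatment ratio was below 1 in 5 and above 1 in sub-cluster 12, at 1.43 (1.22 to 1.68). These groups come from the same libraries and are not replicates.

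The Cd163/Lyve1/Cbr2 macrophages numbered 597, 858 and 1108 cells. There 3 of 9 factors were called higher with age (Irf4, Bhlhe40 and Klf4), beside 15.9% of genes called either way, and 3 of 9 were called lower with treatment (Irf4, Bhlhe40 and Klf4), beside 14.1%. For Irf4 the ratio was 1.92 (1.70 to 2.16) with age and 0.498 (0.449 to 0.551) with treatment. Bhlhe40 had 1.90 (1.65 to 2.2) and 0.483 (0.428 to 0.546). Klf4 had 1.75 (1.67 to 1.83) and 0.666 (0.642 to 0.691), the latter only just inside the fold. Old rMETRNL over young PBS stood at 0.954 (0.842 to 1.08) for Irf4, 0.920 (0.794 to 1.07) for Bhlhe40 and 1.16 (1.11 to 1.22) for Klf4. Maf stood nearer 1, with 0.955 (0.924 to 0.987) and 1.13 (1.09 to 1.16). Other summed lists were highest in old PBS in the same cells: 16 immediate early and stress genes at 15326, 18250 and 15344 CPM, 5 MHC class II genes at 3622, 9793 and 2858, and 12 myocyte markers at 76.3 and 103 in young PBS and old rMETRNL and higher than both in old PBS. Their part in these ratios was not tested.

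Sub-cluster 4 scored best for the Cx3cr1 macrophage list among the subset lists, but was left unnamed. Its leading genes include Hes1 and the heat shock and immediate early genes Hspa1a, Hspa1b and Jun. It had the highest age ratio for Irf4 among the macrophage groups, 2.95 (2.08 to 4.19), on 61 and 78 UMIs. It also had the highest for Klf4, 2.06 (1.93 to 2.2). In the same cells 5 erythroid markers summed to 15.6, 368 and 62.0 CPM, 12 myocyte markers to 72.5, 182 and 90.2 and 5 MHC class II genes to 7638, 12524 and 6899. These sums were also highest in old PBS, and their part in the 2 ratios was not tested. Its Nr4a1 ratio was 1.13 (1.06 to 1.20), whereas 6 of the 8 groups had intervals below 1. In Il1a/Slc7a11/Ccrl2 macrophages Nr4a1 was 200, 117 and 167 CPM, 0.585 (0.558 to 0.613) with age and 1.43 (1.35 to 1.5) with treatment. There 16 immediate early and stress genes summed to 8623, 7439 and 8096 CPM. The 8 interferon-response markers summed to 1181, 661 and 1051 and the 8 Ly6c2-high monocyte markers to 760, 479 and 712. All were lowest in old PBS, and their part was not tested. In interferon-response macrophages the age ratio of Nr4a1 was 1.07 (0.921 to 1.24).

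**Figure D4:**
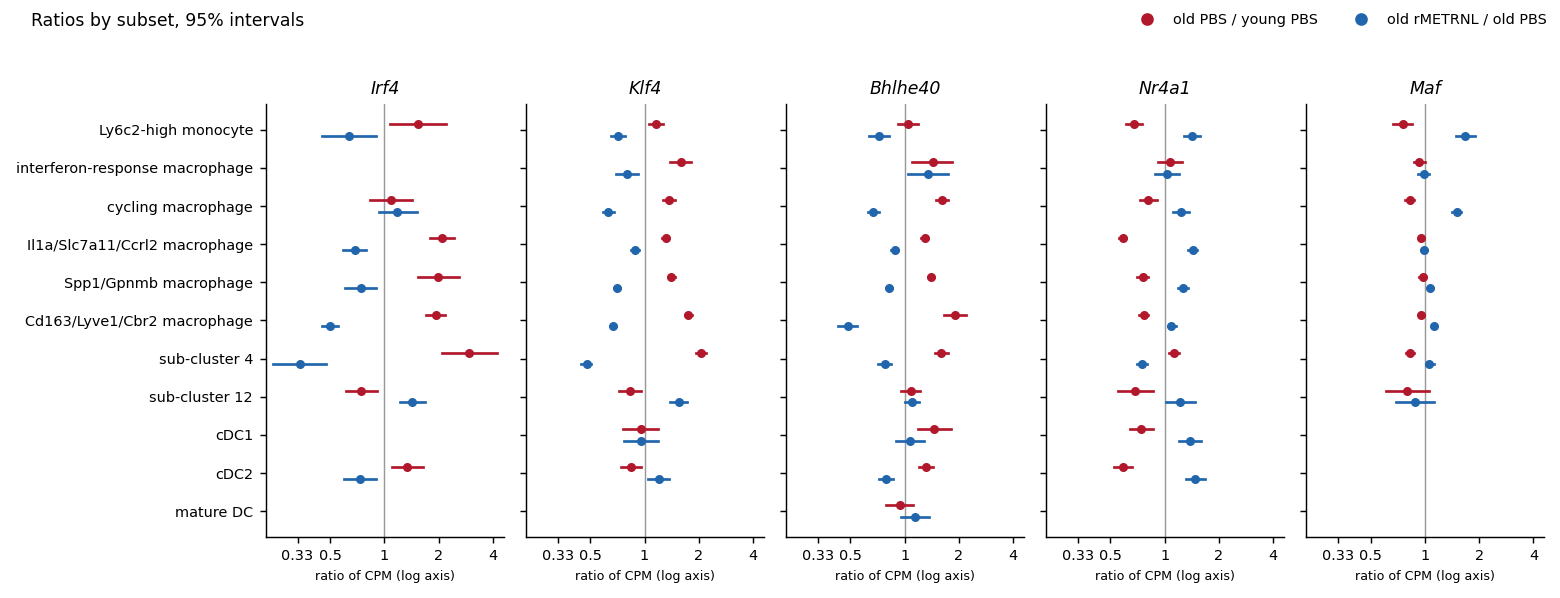
Ratio of CPM in each macrophage and dendritic subset, on a log axis, for old PBS over young PBS (red) and old rMETRNL over old PBS (blue), with exact 95% intervals. Points are drawn where both libraries had at least 50 UMIs. Irf4, Klf4 and Bhlhe40 lie right of 1 with age and left of 1 with treatment in Cd163/Lyve1/Cbr2 macrophages, and Maf lies close to 1 with age there, at 0.955.

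Dendritic-like cells numbered 590, 341 and 612. Of the 9 factors, Maf was called higher and Nr4a1 lower with age, beside 15.0% of 9633 genes, and Maf and Nr1h3 were called lower with treatment, beside 12.5%. Between old rMETRNL and young PBS 0 of 9 were called, with 7.03% of genes. Nr4a1 was 263, 171 and 252 CPM, a ratio of 0.647 (0.593 to 0.706) with age and 1.48 (1.35 to 1.61) with treatment. Its age ratio was not past the fold under the looser cell filter (0.680), the stricter one (0.695) or with doublet calls kept (0.689). In cDC2-like cells alone Nr4a1 had 0.590 (0.526 to 0.662) and 1.48 (1.31 to 1.67). There 16 immediate early and stress genes summed to 11448, 7849 and 11232 CPM and 8 Ly6c2-high monocyte markers to 3033, 1691 and 2558. Both were lowest in old PBS, and their part was not tested. Nr4a1 was lowest in old PBS both in dendritic-like cells and in macrophages.

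The dendritic values of Maf and Nr1h3 rest on few transcripts. Maf was 14.7, 23.2 and 10.3 CPM on 97, 101 and 69 UMIs, with ratios of 1.58 (1.19 to 2.11) and 0.445 (0.323 to 0.610), and Nr1h3 had a treatment ratio of 0.604 (0.404 to 0.90) on 51 and 55 UMIs. With doublet calls kept, the age ratio of Maf came to 1.05, its treatment ratio turned to 1.09 and that of Nr1h3 came to 0.958. The summed level of the 6 Spp1/Gpnmb macrophage markers in dendritic-like cells was 828, 1229 and 505 CPM, highest in old PBS and lowest in old rMETRNL as Maf was. That of the 16 general macrophage markers was 3972, 3644 and 3006 CPM. The part of either in these ratios was not tested.

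Irf8 also differed between libraries within dendritic subsets. In cDC1-like cells its ratio was 0.747 (0.698 to 0.799) with age and 1.32 (1.24 to 1.41) with treatment, short of the fold. There the 16 macrophage markers summed to 2528, 3881 and 2090 CPM, highest in old PBS, and the 7 cDC1 markers to 999, 800 and 889, lowest in old PBS. Their part in the Irf8 ratios was not tested. In mature DC-like cells (81, 56 and 71 cells) the age ratio was 1.63 (1.39 to 1.92) and the treatment ratio 1.21 (1.04 to 1.39). Over the libraries 16 macrophage markers there summed to 1848, 2627 and 1350 CPM, 12 myocyte markers to 28.2, 356 and 92.6 and 9 cycling markers to 349, 89.9 and 117, and their part was not tested. Bhlhe40 in cDC2-like cells was 1.31 (1.20 to 1.44) and 0.788 (0.719 to 0.864). There 8 mature DC markers summed to 605, 1276 and 657 CPM, also highest in old PBS, and their part was not tested.

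Klf4 differed between libraries outside macrophages as well. In FAP-like cells its ratio was 1.78 (1.75 to 1.81) with age and 0.694 (0.682 to 0.707) with treatment. In endothelial-like cells it was 1.74 (1.65 to 1.83) and 0.675 (0.643 to 0.709), and in MuSC/myoblast-like cells 1.96 (1.79 to 2.15) and 0.658 (0.602 to 0.719). In endothelial-like cells 16 immediate early and stress genes summed to 12707, 16968 and 13869 CPM, 12 myocyte markers to 31.0, 341 and 70.4 and 5 erythroid markers to 19.9, 154 and 34.4, all highest in old PBS as Klf4 was. The immediate early and stress sum was 11701, 11888 and 11812 CPM in FAP-like cells and 3032, 3099 and 3206 in MuSC/myoblast-like cells. The 12 myocyte markers summed to 25.4, 94.1 and 50.2 CPM in FAP-like cells. In MuSC/myoblast-like cells 11 FAP markers summed to 501, 700 and 456. Both were highest in old PBS. The part of these sums in the Klf4 ratios was not tested. Tenocyte-like cells went the other way, with 0.899 (0.831 to 0.972) and 1.46 (1.35 to 1.58), as did dendritic-like cells, with 0.803 (0.721 to 0.893) and 1.15 (1.03 to 1.28). In tenocyte-like cells 16 macrophage markers summed to 819, 3340 and 1873 CPM and 5 MHC class II genes to 414, 1288 and 525. Both were highest in old PBS, where Klf4 was lowest, and their part was not tested. Bhlhe40 in FAP-like cells was 1.20 (1.15 to 1.24) and 0.874 (0.843 to 0.907), both nearer 1 than in macrophages. Nr4a1 in FAP-like cells was 1.28 (1.24 to 1.32) and 0.820 (0.794 to 0.846), on the other side of 1 from macrophages in both comparisons. These differences between classes were not tested.

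Klf4 and Nr4a1 are themselves induced by handling and by acute stress, so 16 immediate early and dissociation stress genes were examined beside them. In macrophage/monocyte-like cells 4 of 16 were called lower with age and 0 higher, beside 13.6% of all genes called either way, and 3 were called higher with treatment and 0 lower, beside 9.72%. The list was mixed, with a median log2 ratio of -0.04 with age and -0.05 with treatment and 7 of 16 genes above 0 in each. Hspa1a, an inducible heat shock chaperone, was 1414, 667 and 1391 CPM, giving 0.472 (0.467 to 0.476) with age and 2.08 (2.07 to 2.10) with treatment. Hspa1b had 0.522 and 1.75, Jun 0.607 and 1.71, and Ier2, an immediate early gene, 0.581 and 1.31. Hspa1a, Hspa1b and Jun are leading genes of sub-cluster 4, which numbered 786, 357 and 892 cells, and the part of this was not tested. In dendritic-like cells Hspa1a had 0.498 and 2.01. Fosb had log2 ratios of 0.32 and -0.58. The summed level of the list was 8471, 7102 and 8067 CPM in macrophages and 10797, 7825 and 10725 in dendritic-like cells. In both classes the sum was lowest in old PBS, but in Cd163/Lyve1/Cbr2 macrophages it was highest there, as given above, and so it was in sub-cluster 4, at 12773, 13623 and 10974 CPM. Its part in the Klf4 and Nr4a1 ratios was not tested.

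Nr1h3 itself differed by less than the fold between libraries in the macrophage class as a whole. In sub-cluster 12 it was past the fold, at 0.538 with treatment and 0.508 for old rMETRNL over young PBS. In the whole class 13 target genes of LXR were examined beside Nr1h3. With age 3 of 13 were called higher and 0 lower, and with treatment 2 were called lower and 0 higher, beside the same 13.6% and 9.72% of genes. Their median log2 ratio was 0.15 and -0.20. In the same cells the 5 MHC class II genes summed to 10548, 12703 and 8392 CPM and the 6 Spp1/Gpnmb markers to 7045, 9430 and 9555, so that the first was highest in old PBS and the second lowest in young PBS. Their part in these counts was not tested. Abca1, the cholesterol exporter, was 385, 604 and 388 CPM, giving 1.57 (1.55 to 1.59) with age and 0.641 (0.633 to 0.650) with treatment. Lpl, lipoprotein lipase, had 1.72 and 0.869, Arl4c 1.39 and 0.697, and Pltp 1.11 and 0.851. Scd1 had 3.21 (2.39 to 4.37) and 0.643 (0.514 to 0.804) at levels of only 0.618, 1.98 and 1.28 CPM. In dendritic-like cells 3 of 12 were called higher with age, beside 15.0% of genes, and 4 of 12 lower with treatment, beside 12.5%. The Spp1/Gpnmb macrophage markers, whose sum in these cells is given above, were highest in old PBS as well, and their part in those counts was not tested.

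Spi1 also differed by less than the fold. Of 12 myeloid genes bound by PU.1, 1 was called higher with age and 1 lower, beside 13.6% of all genes, and 1 was called lower with treatment, beside 9.72%. Csf2rb, the shared receptor chain for GM-CSF, was 181, 340 and 185 CPM (1.88 and 0.544), and Fcgr1, a high-affinity Fc receptor, was 446, 250 and 351 CPM (0.561 and 1.40). The interferon-response and Ly6c2-high monocyte marker sums, given with Irf7 below, were lowest in old PBS as Fcgr1 was, and their part was not tested. Itgam had ratios of 1.21 and 1.08, Ncf1 0.849 and 1.18, Btk 0.902 and 1.28, and Tlr4 0.870 and 1.36.

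Among 51 other myeloid transcription factors, 50 could be compared. With age 1 was called higher and 3 lower, beside 13.6% of genes, and with treatment 2 higher and 1 lower, beside 9.72%. Irf7, the amplifier of interferon responses, was 579, 242 and 380 CPM with ratios of 0.417 and 1.57. The 8 interferon-response macrophage markers summed to 1380, 560 and 1168 CPM in the same cells and the 8 Ly6c2-high monocyte markers to 1084, 512 and 974, also lowest in old PBS, and their part was not tested. Klf2, a relative of Klf4, was 181, 106 and 192 CPM, or 0.588 (0.574 to 0.602) with age and 1.81 (1.76 to 1.85) with treatment. It is a leading gene of sub-cluster 4, which numbered 786, 357 and 892 cells, fewest in old PBS, and the part of this was not tested. In dendritic-like cells the age ratio of Klf2 was 1.02 (0.943 to 1.11). Bhlhe41, the closest relative of Bhlhe40, had 1.55 (1.49 to 1.62) and 0.829 (0.798 to 0.862). Nr4a3, a relative of Nr4a1, was 57.4, 74.2 and 45.6 CPM, with 1.29 and 0.615. Id2 had 1.40 and 0.673.

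**Figure D5:**
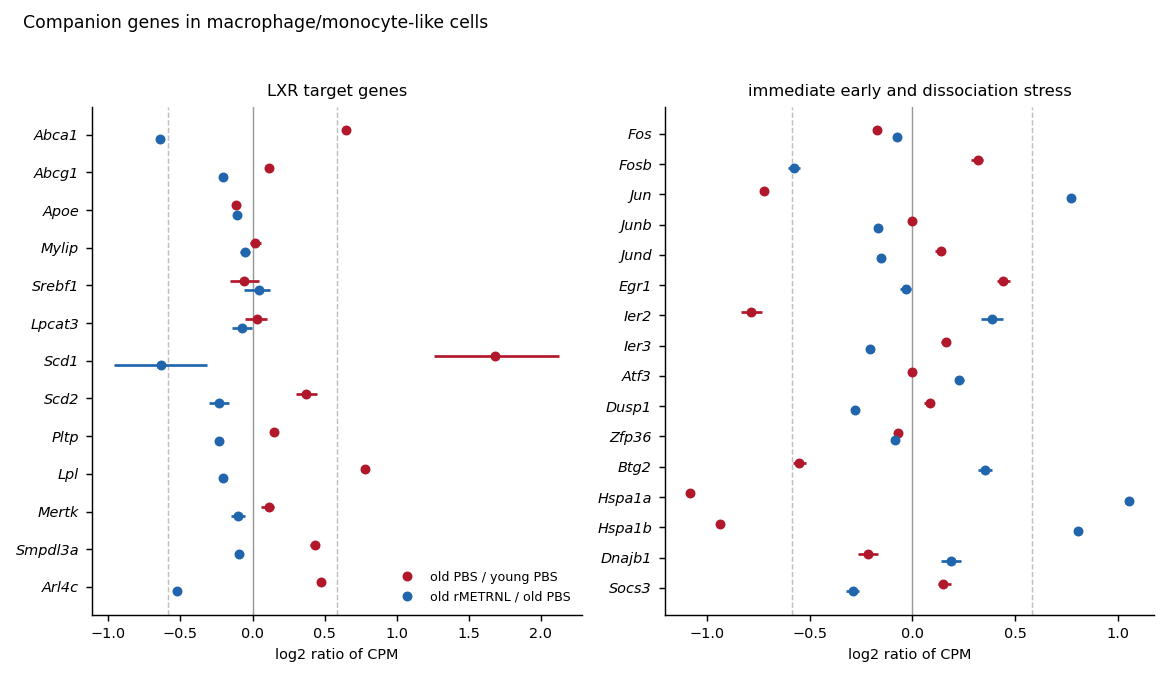
Log2 ratio of CPM in macrophage/monocyte-like cells for 13 LXR target genes and 16 immediate early and dissociation stress genes, old PBS over young PBS in red and old rMETRNL over old PBS in blue, with exact 95% intervals and dashed lines at 1.5-fold. Abca1, Lpl and Scd1 are past the fold with age, and Hspa1a, Hspa1b, Jun and Ier2 are past it on the lower side.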

How the data were processed

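The authors deposited unnormalized UMI counts for each gene in each barcode, made with Cell Ranger. The submitters' processing notes name versions 5.0.0 and 3.1.0 and build mm10. The matrix headers give 5.0.0, and the study's methods name a different version. With scanpy 1.11.5, barcodes were dropped below 500 genes or from 10% mitochondrial UMIs upwards. Scrublet's own threshold called 0 doublets, so the highest scores were called at 0.8% per 1000 barcodes and removed (1179, 1261 and 1559). Clusters (2000 variable genes without the 9 factors, 30 components, 20 neighbours, leidenalg 0.10.2, resolution 0.8) were named from marker lists, with the naming conditions revised after cluster tables were seen. Names end in "-like" or stand for subsets named in this way. Where 1 library supplies most of a cluster, library and cell type cannot be told apart. Macrophage and dendritic cells were clustered again into 18 sub-clusters, and 2 of them, one of low UMI count (952 cells) and one led by muscle genes (210 cells), were left out, while 1 neutrophil-like (56 cells) and 1 plasmacytoid (54 cells) formed classes of their own.

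UMIs were summed per group and library. Levels had exact Poisson intervals, ratios the exact interval of 2 counts, and shares exact (Clopper-Pearson) intervals, all at 95% and for counting error only. A gene was called at 1.5-fold, with 0.5 added to each count, given at least 50 UMIs over the 3 libraries. Genes named from a list were up to 4 with the largest absolute log2 ratio in macrophages in each of the age and treatment comparisons, given at least 200 UMIs, and 1 gene that this rule names is not reported here. The computation was tested on simulated data. The factors, lists and comparisons were chosen with earlier results of these data known.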

Additional observations from a re-analysis of the deposited data

Results flagged for a closer look

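With 1 library per group no sample could stand apart from others of its group. For 3 factors the same comparison, old rMETRNL over old PBS, was past 1.5-fold in opposite directions in different groups of cells, and these differences were not tested. Maf had a ratio of 1.67 in Ly6c2-high monocytes and 0.445 in dendritic-like cells, the latter on 69 and 101 UMIs. In Ly6c2-high monocytes the 7 Cd163/Lyve1/Cbr2 markers summed to 234, 181 and 383 CPM (young PBS first, old rMETRNL last), the same order as Maf, and 5 erythroid markers to 35.6, 122 and 626, and their part was not tested. Nr4a1 had 1.59 in T/NK-like cells and 0.542 in Schwann/glial-like cells, a class of 69 and 53 cells. In T/NK-like cells the 16 immediate early and stress genes summed to 6226, 3509 and 7099 CPM, also lowest in old PBS, and their part was not tested. Klf4 had 1.55 in sub-cluster 12, led by Dcstamp and Retnla, which was counted with the macrophages though no class marker list named it. Its ratio was 0.658 in MuSC/myoblast-like cells, 0.666 in Cd163/Lyve1/Cbr2 macrophages, 0.631 in cycling macrophages and 0.477 in sub-cluster 4.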

How the results depend on the processing

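No paired analysis was possible because each group had 1 library and the labels' shared number 1 ties no samples together. No library could be left out for the same reason. Of 42 ratios past 1.5-fold with at least 50 UMIs in both libraries, 41 kept their side of 1 under all alternatives run for them. The exception was the treatment ratio of Maf in dendritic-like cells, 1.09 with doublet calls kept. Percentages in brackets are the shares of all tested genes past the same limit at that setting. In macrophages 3 factors were past the fold with age, 4 with doublet calls kept (13.7% of all genes) or with median-of-ratios scaling (13.6%), and 2 with the same mix of sub-clusters (9.88%). At a limit of 0.32 on the log2 scale this was 5 with age (32.5%), 5 with treatment (27.2%) and 1 for old rMETRNL over young PBS (18.3%), and at a fold of 2 it was 0 with age (4.09%). A gate on marker UMIs, which kept only 1050, 569 and 977 cells, gave 3 with treatment, where 13.8% of genes were called (Irf4, Klf4 and Bhlhe40, at 0.521, 0.664 and 0.650). In dendritic-like cells the count with age, 2, became 1 under the looser (14.9%) and under the stricter cell filter (14.5%), 0 with doublet calls kept (13.4%) and 0 at a fold of 2 (3.85%), and 3 with genes centred within each library (14.6%) and at the log2 limit of 0.32 (38.5%). The count with treatment, 2, became 1 under the stricter filter (11.8%), 0 with doublet calls kept (10.5%), 1 with the factors allowed among the clustering genes (12%), 4 at the log2 limit of 0.32 (33.1%) and 1 at a fold of 2 (3.18%). For old rMETRNL over young PBS 2 passed the log2 limit of 0.32 (23.5%). The causes were not tested. The other 2 settings, both for the macrophage class (the same mix of sub-clusters, and the low-UMI sub-cluster counted), were added after the data had been seen. Counting intervals are wide where UMIs are few, as for Maf in dendritic-like cells (69 to 101 UMIs in a library).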
